A study of Zea mays with 322 samples.

Results

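The loci described here are the 30 of 64 MIRNA loci in maize (Zea mays) leaves whose entry in the study's annotation held a miRNA name in neither of its name columns. They are called unnamed loci and carry the cluster number that the locus finder gave them, and the other 34 are called named loci. The choice used the annotation alone and no measured level. All 30 were measured in 322 small RNA libraries of leaves of 45-day plants grown in a greenhouse, of which 319 were used for levels.

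Plant MIRNA genes are transcribed by RNA polymerase II into a hairpin precursor, from which a Dicer-like enzyme cuts a short duplex. One strand of the duplex, the mature miRNA, is bound by an ARGONAUTE protein and pairs with target messages, which are then cleaved or translated less. Conserved plant miRNA families often regulate transcription factors of leaf and shoot development, and many further hairpins occur in a single species or a few related ones and are often transcribed weakly. A locus found by its small RNAs alone, with no match to a catalogued miRNA, carries no name. The study predicted targets for all of its loci by computer, and these are not described here.

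In these plants the copies of a defined part of the genome were varied. In the B–A translocation (TB) lines, the outer part of a chromosome arm carries the centromere of a dispensable B chromosome, so that related plants carry more or fewer copies of it, and all copies so joined also bring B chromatin. Plants with 1 copy of the segment (1D, 14 groups, 56 libraries), 3 copies (3D, 16 groups, 62 libraries) or 4 copies (4D, 4 groups, 14 libraries) in an otherwise diploid plant were compared with diploids (2D, 14 groups, 55 libraries). Haploids with 2 copies of the segment (h2D, 17 groups, 71 libraries) were compared with haploids (h1D, 8 groups, 31 libraries). The 3D, 4D and 2D groups include the line Dp4, which duplicates an interval at the chromosome 4 centromere and whose strain is not given in the sources used here. A ploidy series held haploids with their diploids, triploids with their diploids in the inbred line Mo17, and tetraploids with their diploids in the inbred line W22. Plants of W22 with and without 1 B chromosome (1B and 0B) were also compared. Most groups held 4 plants and several lines shared 1 control group. The labels do not say which strain gave the extra or missing copies, so the number of copies and the allele carried cannot be told apart.

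Counts over all 64 loci ranged from 20129 to 246556 per library used, and the unnamed loci gave between 24 and 1071 of them, with a median of 182. They made up 0.266% of all counts. RPM, the count scaled to the mapped reads of its library, is the level used below, and 1 count was worth 0.580 RPM in the median library. The 3 libraries that the study set aside were left out here as well. In 7 pairs of plants of 1 group the counts did not differ beyond the sampling noise in a chi-square test (p of 0.0547 to 0.227). The plants of 6 of these pairs entered as 1 sample each. The other pair, of TB-6Sa diploids, shared a plant with a joined pair and was not joined. Plants are the replicates, the reads carry no molecular identifiers, and intervals of count ratios and lower bounds cover counting error only. In leaf RNA, fewer cells that make a small RNA and less of it per cell cannot be told apart.

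The sequences of the loci on which the results turn are given first, in the order of their mean level, since the name of these loci carries no information on what the small RNA is. Each is the mature RNA written 5′ to 3′, with bases 2 to 8, the seed, in capitals. The last line shows the named locus MIR171m, which has the same mature sequence as Cluster_42505, and the line before it the single mature RNA of 24 nt.
Cluster_15779, chr1:74812358-74812506: uUGGGAGCcacaaaacugaag
Cluster_99282, chr3:5530111-5530402: uUUUCUGGcugccaaacuagc
Cluster_219450, chr6:7801840-7801917: cUUGGUUUccuccaauuucuca
Cluster_219449, chr6:7801655-7801747: aGAGUUGUaggaaacugaacu
Cluster_42505, chr1:251995167-251995382: uUGAGCCGcgucaauaucucc
Cluster_158979, chr4:148820153-148820384: aAUUAUACgagguuuuggcuu
Cluster_170541, chr4:208091658-208091941: aGAGGGGAuuucaguggcuga
Cluster_273394, chr7:166365828-166366086: aAGGAUAGaggugugaggacc
Cluster_203651, chr5:152603429-152603714: uUUCAUAUuagcugucacucu
Cluster_4527, chr1:18076867-18077142: cCUGAGUCuuuagaucaugau
Cluster_55368, chr2:1221994-1222289: aGUAUGUUagcagauaagacu
Cluster_253439, chr7:32518865-32519066: aUGUUAUUuggucugcgacccgug
MIR171m, chr5:20803808-20804107: uUGAGCCGcgucaauaucucc

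Positions are those of the W22 genome as the study's annotation gives them, without a strand. Of the 30 mature RNAs, 27 were 21 nt, 2 were 22 nt and 1 was 24 nt long. The first base was A in 12, U in 11, C in 7 and G in 0, against A in 4, U in 26, C in 1 and G in 3 of the named loci. The first base is one of the features by which plant ARGONAUTE proteins sort small RNAs. The median GC content of the mature RNAs was 42.9% (23.8 to 66.7%) in the unnamed and 52.4% (38.1 to 61.9%) in the named loci.

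By their seeds, the unnamed loci did not form families with each other or with the named loci, apart from 1. Catalogued miRNAs outside these loci were not compared here. Of the 30, 1 shared its seed with another locus, against 23 of the 34 named loci. This was Cluster_42505, whose mature RNA is letter for letter that of MIR171m on chromosome 5. The miR171 family is known in Arabidopsis for the cleavage of messages of GRAS transcription factors. Since reads of that sequence fit both loci, the division of counts between Cluster_42505 and MIR171m is uncertain. The other 29 lay 7 to 12 edits (substitutions, insertions or deletions) from the nearest named mature RNA.

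The unnamed loci lay on all 10 chromosomes, with 7 on chromosome 1, 4 each on chromosomes 7 and 8, and 1 each on chromosomes 5 and 9. The named loci were placed otherwise, with 8 on chromosome 5 and 1 on chromosome 8. A pair of unnamed loci, Cluster_219449 and Cluster_219450, lay 92 bases apart on chromosome 6, and the next closest unnamed locus was 547312 bases from its neighbour. Whether this pair comes from the same hairpin was not tested. The annotation gave a sequence match other than a miRNA for 7 of the 30: a transcription factor pseudogene of the BHLH family for Cluster_219449, a message of the mTERF family for Cluster_158979 and a non-coding RNA for Cluster_42505 are among them. It placed 1, Cluster_20009, in a gene model (Zm00004b002208). Of the 30, 4 lay in no region whose copies were varied (Cluster_82756, Cluster_279327, Cluster_286340 and Cluster_339274), against 0 of the named loci.

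Most unnamed loci were low. The median over loci of the mean level was 0.584 RPM for the unnamed, 12.1 RPM for the named and 2.24 RPM for all 64 loci. Mean levels of the unnamed loci ran from 0.0439 RPM (Cluster_276809) to 73.96 RPM (Cluster_15779), and those of the named loci from 0.0481 to 32568 RPM. A mean of at least 1 RPM was reached by 12 of 30 unnamed and 29 of 34 named loci, and a mean of at least 10 RPM by 1 and 18. The ranges of both classes thus overlapped over most of the unnamed range, with Cluster_15779 ninth of all 64 loci.

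Cluster_15779, on chromosome 1, was the single unnamed locus with a count in all 319 libraries, with a median of 56.0 and a highest value of 274.1 RPM. Cluster_99282, on chromosome 3, averaged 9.51 RPM and had a count in 308 libraries. The neighbours Cluster_219450 and Cluster_219449 averaged 8.53 and 5.83 RPM and had a count in 303 and 300 libraries. These 4 were followed by Cluster_42505 with 4.03 RPM, Cluster_158979 with 3.25 RPM and Cluster_170541 with 2.09 RPM. At the other end, 14 of the 30 had a median of 0 RPM, against 4 of the 34 named loci.

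The median unnamed locus had a count in 173 of 319 libraries and at least 3 counts in 42, whereas the median named locus had a count in 318 and at least 3 counts in 312. A library held a count for 7 to 25 of the unnamed loci, with a median of 17. At this depth a locus of 0.5 RPM gives less than 1 read in the median library, so a library at 0 does not show that the RNA was absent. A test was made where the mean of the groups compared reached 0.5 RPM. Of the unnamed loci, 3 reached it in all 55 comparisons (Cluster_15779, Cluster_42505 and Cluster_52881) and 5 in none (Cluster_312979, Cluster_67808, Cluster_10611, Cluster_136992 and Cluster_276809), against 24 and 2 of the named loci. The 25 others stand for the unnamed loci in what follows.

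**Figure D1:**
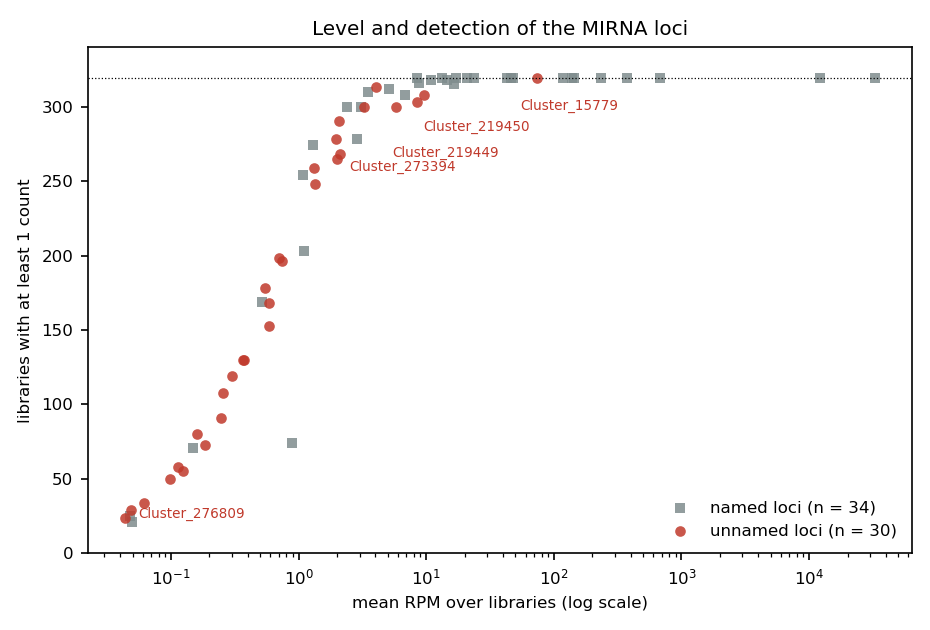
Mean RPM of each locus (log scale) against the number of the 319 libraries in which it had at least 1 count, for the 30 unnamed and 34 named MIRNA loci. The unnamed loci spread from 24 to 319 libraries and sit to the left of most named loci, with Cluster_15779 alone among them above 10 RPM.

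The first comparison asked how unnamed loci responded when the copies of their own region were varied. Such a locus is called cis to the segment, and all others are trans. Counts were compared with edgeR's quasi-likelihood test between each group and its own control, with p-values adjusted over all loci of the comparison (Benjamini-Hochberg FDR) and a locus called where the FDR was under 0.05. Log2 fold changes below are on edgeR's TMM scale, with their standard error (SE).

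In cis, 36 tests of 18 unnamed loci gave 8 calls at 5 loci, all in the direction of the copies. With 1 copy against 2, 2 of 6 were lower, while 7.8% of all tests of these comparisons, cis and trans and of both classes, were called lower. With 3 copies against 2, 1 of 13 was higher, with 2.32% of all tests higher. With 4 copies against 2, 0 of 3 were called, with 1.82% of all tests higher. In haploids with 2 copies against 1, 5 of 14 were higher, with 9.36% of all tests higher. The named loci gave 20 calls in 85 cis tests (23.5%), against 22.2% of the unnamed and 23.1% of all cis tests. Of the named calls, 6 were lower with 1 copy. With 3 copies 1 was higher and 2 lower, with 4 copies 1 was higher, and in haploids 7 were higher and 3 lower. Over the cis tests of both classes, 8 of 31 were lower with 1 copy. With 3 copies, 4 copies and in haploids, 2 of 38, 1 of 10 and 12 of 42 were higher.

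The median cis log2 fold change of the unnamed loci was -1.29 with 1 copy (n = 6 loci), 0.68 with 3 copies (13 loci), 0.21 with 4 copies (3 loci) and 1.22 in the haploids with 2 copies (14 loci). For the named loci these medians were -0.31, 0.06, 0.02 and 0.35 over 25, 25, 7 and 28 loci. The log2 copy ratio itself was -1, 0.585, 1 and 1. The medians of both classes had the same sign in all 4 kinds of comparison, and those of the unnamed loci were farther from 0. The limit of 0.5 RPM was on the mean over both groups. A locus low in its controls could thus be tested only because it was higher in the other group. An example is Cluster_55368, with means of 0.203 RPM in the haploids and 2.87 RPM with 2 copies. The part of this limit in the medians was not tested. Of the named loci, 16 shared their whole mature RNA with another locus, against 1 of the unnamed. The division of counts between such loci is uncertain, and its part in the medians was not tested either. Loci are not replicates of a dose, and several of these comparisons share control plants, so no test was made on these medians.

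**Figure D2:**
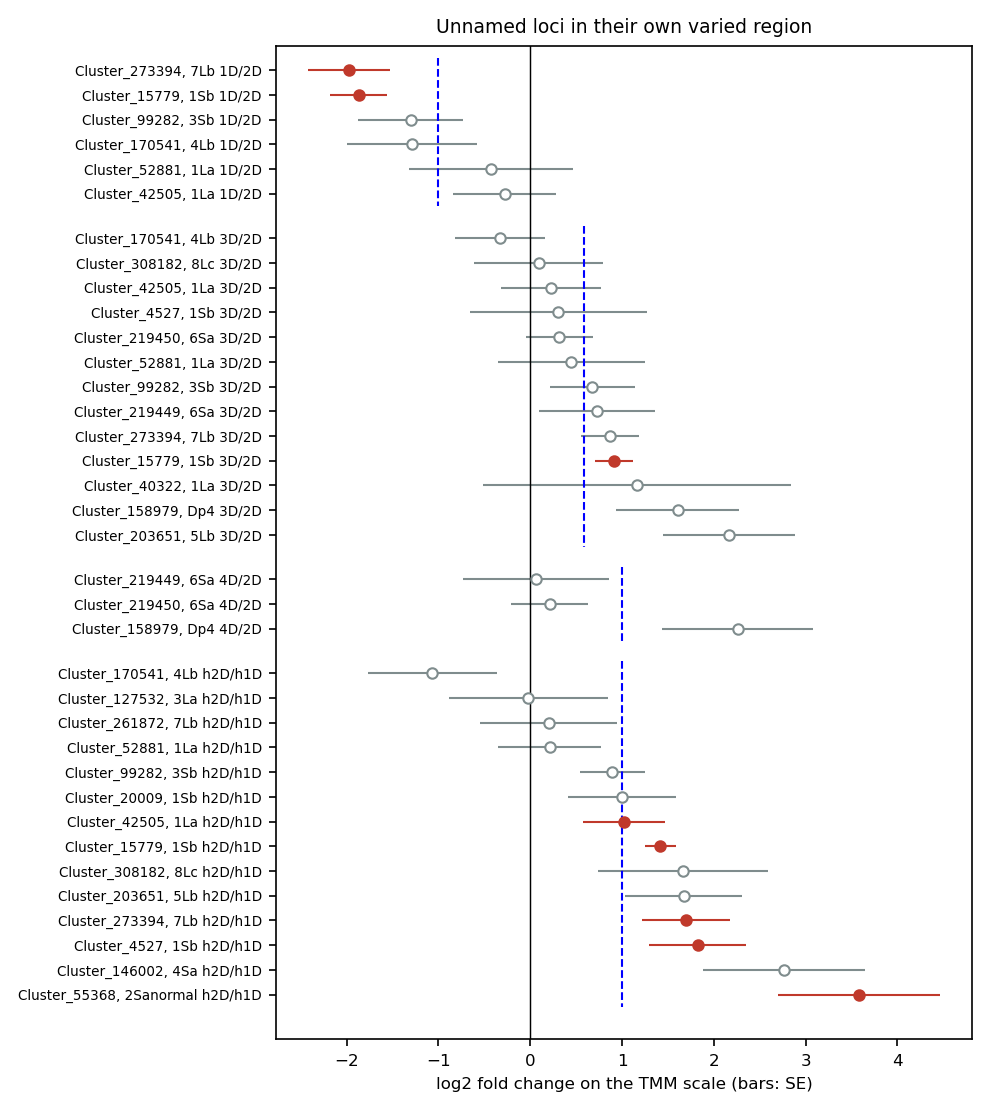
Log2 fold change on the TMM scale (x axis) with its SE for each unnamed locus in each comparison that varied its own region, 36 tests in all, with the log2 copy ratio as a dashed line. Filled points are the 8 tests with an FDR under 0.05, of which 2 lie below 0 (1 copy against 2) and 6 above it.

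Cluster_15779 lies in the segment of TB-1Sb on the short arm of chromosome 1 and is the unnamed locus with by far the most counts. It had 9.39, 17.4, 17.5 and 20.5 RPM in the plants with 1 copy. The diploids had 47.9, 52.2, 54.3 and 58.3 RPM, and the plants with 3 copies 101.3, 101.9, 135.4 and 138.7 RPM. All plants of a group lay apart from those of the next, in the order of the copies. The log2 fold change was -1.87 (SE 0.31, FDR 0.000379) with 1 copy and 0.91 (SE 0.21, FDR 0.0035) with 3 copies. In haploids the level was 38.6, 50.1, 56.2 and 66.4 RPM, and in the 6 haploids with 2 copies the lowest, median and highest values were 159, 177 and 266 RPM. These groups did not overlap either, with a log2 fold change of 1.41 (SE 0.17, FDR 8.3e-06). On the scale of mapped reads the ratio of means was 0.304, 2.24 and 3.62 in these 3 comparisons, for copy ratios of 0.5, 1.5 and 2.

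Cluster_273394 lies in the segment of TB-7Lb on the long arm of chromosome 7. It had 0.412, 1.00, 1.98 and 2.32 RPM with 1 copy, 3.19, 4.404, 5.68 and 6.26 RPM in the diploids, and 7.15, 7.31, 8.42 and 15.6 RPM with 3 copies. These 3 groups did not overlap. The log2 fold change was -1.97 (SE 0.45, FDR 0.000234) with 1 copy, and 0.87 (SE 0.32, FDR 0.125) with 3 copies, which was not called. In haploids it had 2.09, 3.89, 4.07, 4.99 and 10.8 RPM, and with 2 copies 6.62, 7.77, 19.2 and 36.1 RPM, so that the groups overlapped. This difference was called (log2 fold change 1.70, SE 0.48, FDR 0.00957), and without the plant at 36.1 RPM it was not (FDR 0.0547).

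The 3 other cis calls were in haploids and at lower levels. Cluster_4527, also in the segment of TB-1Sb, had 0, 0.544, 0.700 and 0.746 RPM in the haploids and 1.30, 2.62 and 3.34 RPM as the lowest, median and highest of 6 haploids with 2 copies (log2 fold change 1.82, SE 0.53, FDR 0.0145). With 3 copies against 2 it had 0, 0.694, 0.830 and 1.66 RPM against 0, 0.554, 0.614 and 0.628 RPM and was not called (log2 fold change 0.31, SE 0.96, FDR 0.877). The haploid groups did not overlap and the diploid groups did. The haploid call was not made with DESeq2.

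Cluster_55368 lies in the segment of TB-2Sa on chromosome 2 and had 0, 0, 0 and 0.814 RPM in the haploids, a single count, against 1.53, 1.64, 4.02 and 4.28 RPM with 2 copies, 18 counts. The groups did not overlap, and the call (log2 fold change 3.59, SE 0.88, FDR 0.00641) rests on these few counts, whose ratio was 14.7 with a 95% interval of 2.32 to 612. Cluster_42505 in the segment of TB-1La had 1.57, 3.32, 3.54 and 3.86 RPM in the haploids and 7.63, 7.77, 11.7 and 12.01 RPM with 2 copies (log2 fold change 1.02, SE 0.45, FDR 0.0456). Although these groups did not overlap, the call was lost with DESeq2, with no limit on RPM and without 1 plant for 7 of the 8 plants. It was kept with mapped reads as library size, and the ratio of mean RPM was 3.19. In this comparison the median of all loci moved by 0.65 (log2) between these scales, so the size of the difference depended on the scale. In the diploid background the same locus had 3.62, 5.08, 5.57 and 5.99 RPM with 1 copy, 3.27, 5.62 and 10.1 RPM with 2, and 5.50, 8.13 and 8.70 RPM with 3. These groups overlapped, and neither comparison was called (FDR 0.881 and 0.784).

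**Figure D3:**
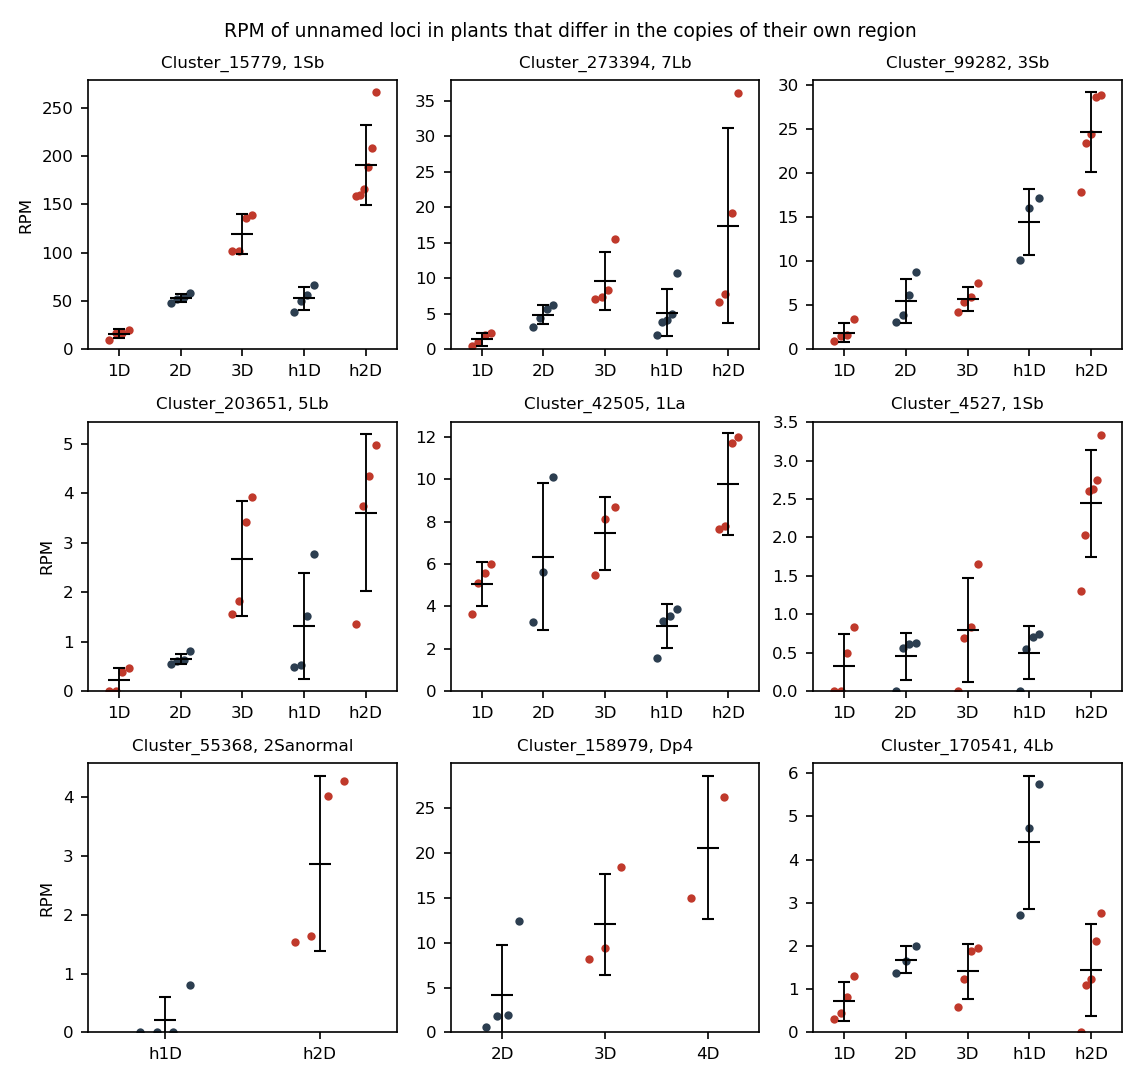
RPM of single samples (points) for unnamed loci in the groups of their own line, by the copies of the segment in diploid (1D to 4D) and haploid (h1D, h2D) plants, with controls in dark blue and bars at the mean and 1 SD. A joined pair of plants is drawn as 1 point at its mean RPM. For Cluster_15779 in TB-1Sb the 1-copy plants sit between 9.39 and 20.5 RPM, the diploids between 47.9 and 58.3 and the 3-copy plants between 101.3 and 138.7.

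A slope over all diploid-background groups of a line uses the copies as a number. It is the change in the log2 level per unit of log2 copies, so that a slope of 1 is a level in proportion to copies. All 12 unnamed cis loci tested had a positive slope, with a median of 1.11, and 4 were called. Here too the limit of 0.5 RPM was on the mean over the groups fitted. The parts of this limit and of mature RNAs shared between loci were not tested. For the named cis loci the median was 0.12, with 18 of 25 positive, 8 called higher and 1 lower. Over all loci and lines, cis and trans, 7.83% of slopes were called higher. The slopes called were 1.501 (SE 0.16, FDR 2.48e-07) for Cluster_15779, 1.46 (SE 0.27, FDR 0.00387) for Cluster_99282, 2.18 (SE 0.47, FDR 0.0113) for Cluster_203651 and 1.81 (SE 0.27, FDR 2.55e-06) for Cluster_273394. The 95% interval excluded 1 for Cluster_15779 (1.14 to 1.86), Cluster_203651 (1.15 to 3.22) and Cluster_273394 (1.21 to 2.41), and included it for Cluster_99282 (0.85 to 2.07). All 4 calls were kept under each of the 5 other settings and without each plant in turn.

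For Cluster_99282 in the segment of TB-3Sb and Cluster_203651 in that of TB-5Lb no single comparison was called. Cluster_99282 had 0.987, 1.52, 1.61 and 3.43 RPM with 1 copy, 3.14, 3.88, 6.14 and 8.79 RPM in the diploids and 4.205, 5.37, 5.91 and 7.49 RPM with 3 copies. The groups overlapped, and the fold changes against the diploids were -1.30 (SE 0.57, FDR 0.180) and 0.68 (SE 0.46, FDR 0.318) on the log2 scale. On the scale of mapped reads the ratio of means was 0.344 with 1 copy and 1.05 with 3. In the comparison of 3 copies the median of all loci moved by -0.59 (log2) when mapped reads replaced TMM, the lowest shift of all comparisons. The difference between 2 and 3 copies thus depended on the scale. In haploids it had 10.2, 16.1 and 17.2 RPM, and 17.9, 23.5, 24.5, 28.6 and 28.9 RPM with 2 copies (log2 fold change 0.89, SE 0.35, FDR 0.163), without overlap.

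Cluster_203651 was not tested with 1 copy against 2, as the mean over both groups was below 0.5 RPM. The plants with 1 copy still entered the slope. The locus had 0.554, 0.614, 0.628 and 0.799 RPM in the diploids, a single count in each, and 1.56, 1.81, 3.42 and 3.93 RPM with 3 copies (log2 fold change 2.17, SE 0.72, FDR 0.0541). In haploids it had 0.482, 0.523, 1.52 and 2.76 RPM, and 1.35, 3.75, 4.35 and 4.98 RPM with 2 copies (log2 fold change 1.67, SE 0.64, FDR 0.0817). The diploid groups did not overlap and the haploid groups did, with both differences near the threshold and past it in neither. The first was called with mapped reads as library size (FDR 0.0404) and with all groups of the line in 1 fit (FDR 0.0285). Cluster_146002 in the segment of TB-4Sa was also close in haploids, with a log2 fold change of 2.77 (SE 0.88, FDR 0.0549).

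The remaining cis loci described here had no cis call. The neighbours Cluster_219449 and Cluster_219450 lie in the segment of TB-6Sa. Cluster_219450 had 7.14, 7.39 and 14.9 RPM in the diploids, 6.91, 7.41, 13.3 and 13.6 RPM with 3 copies and 5.59, 9.91, 11.98 and 12.97 RPM with 4. Cluster_219449 had 1.45, 2.98 and 3.57 RPM, then 1.97, 2.27, 4.63 and 5.31 RPM, then 0, 1.10, 3.27 and 5.76 RPM in the same groups. All groups overlapped for both. The slopes were 0.16 (95% interval -0.63 to 0.95) for Cluster_219450, which excludes 1, and 0.08 (-1.46 to 1.61) for Cluster_219449, which does not.

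Cluster_170541 in the segment of TB-4Lb had 0.309, 0.446, 0.816 and 1.31 RPM with 1 copy, 1.39, 1.66 and 2.00 RPM in the diploids, and 0.590, 1.25, 1.88 and 1.956 RPM with 3 copies. In haploids it had 2.72, 4.73 and 5.74 RPM, and with 2 copies 0, 1.09, 1.23, 2.12 and 2.77 RPM. The log2 fold changes were -1.28 (SE 0.71, FDR 0.542), -0.33 (SE 0.49, FDR 0.727) and -1.07 (SE 0.70, FDR 0.400). None was called. The plants with 1 copy lay below the diploids without overlap, in the direction of the copies, and the haploids with 2 copies had the lower mean of the haploid groups, with overlap. The slope over the diploid background was 0.84 (SE 0.39, 95% interval -0.03 to 1.72, FDR 0.165), an interval that includes 0 and 1.

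Cluster_158979 lies in the region that Dp4 duplicates. It had 0.624, 1.80, 1.94 and 12.4 RPM in the diploids, 8.16, 9.45 and 18.4 RPM with 3 copies and 14.97 and 26.2 RPM with 4. Of the diploids, 1 plant lay among those with 3 copies and the 3 others below all of them. Neither comparison was called, with log2 fold changes of 1.61 (SE 0.67, FDR 0.326) and 2.26 (SE 0.82, FDR 0.292). Without the diploid plant at 12.4 RPM both were, at 2.98 (FDR 0.0216) and 3.67 (FDR 0.00488), and so was the slope (3.48, FDR 0.00659, against 2.28, FDR 0.152, with it). With mapped reads as library size the comparison of 4 copies and the slope were called with all plants (FDR 0.0181 and 0.0205).

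In trans, 52 of 736 tests of the unnamed loci were called (7.07%), 21 higher and 31 lower, against 181 of 1404 (12.9%) for the named loci and 11.5% of all tests in the 51 comparisons of segments. The 52 calls came from 12 of the 25 loci tested. With 1 copy, 7 of 198 were higher and 10 lower, with 6.34% higher and 7.8% lower over all tests. With 3 copies, 1 of 215 was higher and 2 lower, with 2.61% of all tests lower. With 4 copies, 0 of 46 were higher and 1 lower, with 4.24% of all tests lower. In haploids with 2 copies, 13 of 277 were higher and 18 lower, with 7.08% of all tests lower.

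In both classes the share called was larger among tests at a higher level, up to 100 RPM. Over cis and trans together, where the mean of the groups compared was 0.5 to 2 RPM, 2.58% of 388 tests of unnamed and 4.04% of 223 of named loci were called. At 2 to 10 RPM it was 10.3% of 282 and 9.47% of 380, and at 10 to 100 RPM 20.7% of 87 and 20.0% of 509. At 100 RPM or more it was 20% of 15 and 14.3% of 377. Of the unnamed tests, 388 of 772 were in the lowest of these classes. The unnamed loci thus had fewer calls over all tests and about the same share as the named loci between 2 and 100 RPM, and the part of the level in the difference was not tested.

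The largest number of trans calls in a comparison was in the TB-1La haploids with 2 copies, where 8 of 15 unnamed trans loci were lower, with 31.9% of all loci tested lower. Cluster_15779, Cluster_99282, Cluster_158979, Cluster_170541, Cluster_273394, Cluster_20009, Cluster_4527 and Cluster_261872 were those called. This comparison had the largest shift between scales: the median of all loci moved by 0.65 on the log2 scale when mapped reads replaced TMM. On the scale of mapped reads 4 of the 15 were lower and 1 higher. Cluster_261872 had no count in the 4 plants with 2 copies and was at least 3.56-fold lower, taking 3 counts over the group as the floor.

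**Figure D4:**
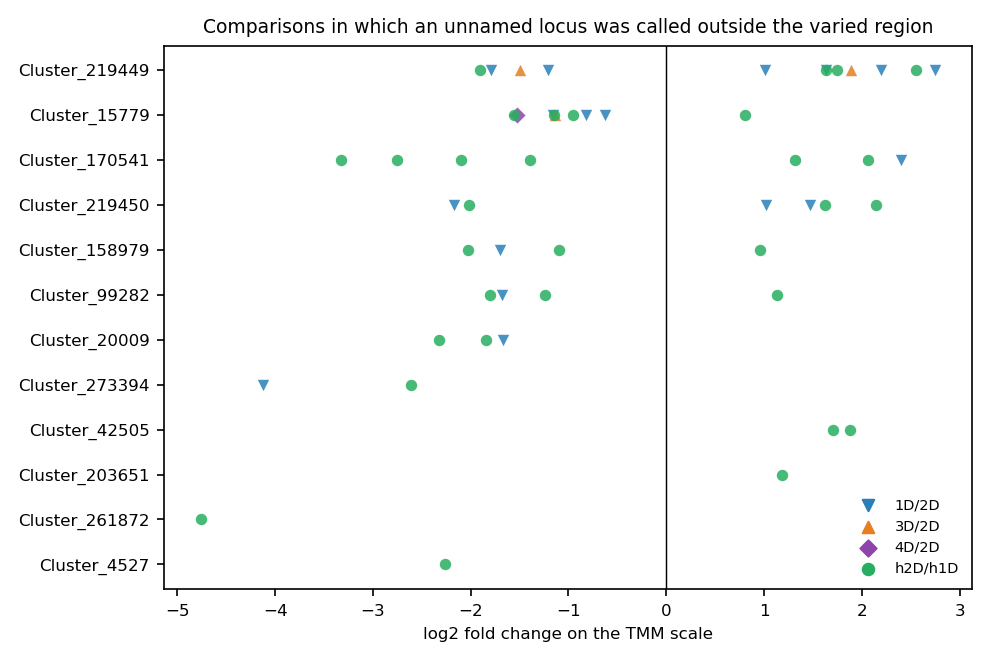
Log2 fold change on the TMM scale (x axis) of each of the 52 trans calls of unnamed loci, 1 line for each of the 12 loci, with symbols for the kind of comparison. Cluster_219449 has 12 calls, 8 of them above 0, and Cluster_15779 has 9, of which 8 lie below 0.

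Cluster_219449 had the most trans calls, 12, with 8 higher and 4 lower. In TB-6Lc plants with 1 copy it had 23.7, 25.6, 31.6 and 32.7 RPM against 0, 4.03, 4.63 and 7.22 RPM in the diploids (log2 fold change 2.75, SE 0.40, FDR 9.04e-06). In TB-9Lc plants with 1 copy it had 11.1, 12.1, 13.04 and 17.3 RPM against 1.20, 1.60, 3.24 and 4.33 RPM (2.20, SE 0.49, FDR 0.000692). In TB-10L19 haploids with 2 copies it had 7.76, 9.57, 10.6, 11.2 and 16.7 RPM against 1.25, 1.36, 1.43, 2.59 and 2.79 RPM (2.55, SE 0.37, FDR 2.29e-06). No plant of these groups overlapped with its control. In the TB-6Lc haploids with 2 copies the locus was lower (log2 fold change -1.91, SE 0.50, FDR 0.0157), against other control plants. That call was lost with DESeq2 and without 1 plant for 3 of the 6 plants (FDR up to 0.0826).

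Most of the lower calls of Cluster_219449 were made against 1 control group. In TB-1Sb plants with 1 copy it had 5.44, 6.07, 9.09 and 10.8 RPM against 7.99, 19.9, 31.3 and 35.8 RPM in the diploids (log2 fold change -1.79, SE 0.44, FDR 0.00537). These diploids also served TB-3Sb and TB-5Lb, and of the 4 lower calls 3 were made against them (TB-1Sb and TB-5Lb with 1 copy, TB-3Sb with 3). The TB-5Lb and TB-3Sb calls were lost without single plants (FDR up to 0.124 and 0.120). With a mean of 23.8 RPM they were the highest of all 14 diploid control groups at this locus, whose median group mean was 3.70 RPM.

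Cluster_219450, its neighbour, had 6 trans calls. In TB-6Lc plants with 1 copy it had 20.7, 21.3, 23.7 and 26.8 RPM against 4.63, 5.41, 10.1 and 10.8 RPM (log2 fold change 1.47, SE 0.32, FDR 0.00062). In TB-10L19 haploids with 2 copies it had 8.10, 11.3, 11.9, 13.4 and 14.5 RPM against 1.87, 2.03, 2.15, 3.48 and 3.89 RPM (2.15, SE 0.34, FDR 8.44e-06). In TB-1Sb plants with 1 copy it had 1.48, 2.49, 3.79 and 6.29 RPM against 6.39, 12.2, 14.5 and 22.7 RPM (-2.17, SE 0.51, FDR 0.00407). The groups stood apart in all 3. Of its 6 calls, 4 were in comparisons in which Cluster_219449 was called in the same direction (TB-6Lc and TB-1Sb with 1 copy, TB-10L19 and TB-7Lb in haploids with 2), and the haploid pair share their control plants.

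Cluster_15779 had 9 trans calls, 8 of them lower. In TB-6Lc plants with 1 copy it had 28.9, 33.5, 36.9 and 41.2 RPM against 67.4, 68.1, 73.0 and 81.7 RPM (log2 fold change -1.16, SE 0.23, FDR 0.000279). In TB-9Sd haploids with 2 copies it had 19.2, 20.8, 24.8 and 30.8 RPM against 49.6, 55.1, 64.6 and 70.1 RPM (-1.15, SE 0.18, FDR 0.000156). In TB-5Sc haploids with 2 copies it had 19.6, 23.7, 36.2 and 54.7 RPM against 47.6, 72.4, 80.4 and 119 RPM (-1.56, SE 0.30, FDR 0.000124). The first 2 pairs of groups did not overlap and the last did. Its lower calls thus came with fewer copies of a segment (TB-6Lc, TB-7Lb and TB-9Sd with 1 copy) and with more (TB-1La with 3 copies, TB-5Sc with 4, and TB-1La, TB-5Sc and TB-9Sd in haploids with 2). The call in TB-1La haploids was lost with mapped reads as library size (FDR 0.244). That in TB-1La with 3 copies was lost with all groups of the line in 1 fit and without single plants (FDR up to 0.232). The single higher call was in TB-7Lb haploids with 2 copies (211 against 115 RPM, log2 fold change 0.80, SE 0.24, FDR 0.0116).

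Cluster_170541 had 7 trans calls, 3 higher and 4 lower. In TB-3La plants with 1 copy it had 5.06, 7.44, 8.25 and 8.66 RPM against 0.450, 0.745, 1.41 and 2.14 RPM (log2 fold change 2.40, SE 0.45, FDR 0.00287). In TB-6Lc haploids with 2 copies it had 7.54, 8.12 and 12.3 RPM against 2.72, 4.73 and 5.74 RPM (1.32, SE 0.40, FDR 0.0341). Neither pair overlapped, and the second call was lost under 4 other settings and without single plants. In TB-7Sc haploids with 2 copies it was lower, on 3 counts against 13, a ratio of 10.9 between the control and these plants (95% interval 3.00 to 59.8), a call lost with a limit of 1 RPM and without single plants (FDR up to 0.124). Cluster_158979 and Cluster_99282 had 4 trans calls each, 1 higher and 3 lower, of which 1 lower call each was in the TB-1La haploids. The 6 remaining loci had 3 or fewer: Cluster_20009 (3 lower), Cluster_273394 (2 lower), Cluster_42505 (2 higher), Cluster_203651 (1 higher), Cluster_261872 and Cluster_4527 (1 lower each). Of the calls of Cluster_42505, 1 was in TB-5Sc haploids with 2 copies (log2 fold change 1.88, FDR 0.011). That segment holds MIR171m, which has the same mature RNA. Since reads fit both loci, this call cannot be told apart from a cis response of MIR171m. Cluster_273394 had no count in the TB-1Sb plants with 1 copy and was at least 2.54-fold lower there, with 3 counts over the group as the floor. Its control group held 8 counts, and this call was lost with DESeq2 (FDR 0.0819).

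The control plants give the spread of these loci where no segment was varied. Among 53 diploid samples of 14 control groups, with the sequencing experiment as a term in the fit (edgeR, quasi-likelihood F-test), 7 of 15 unnamed loci differed between groups within an experiment, with 17 of 30 named loci and 53.3% of all loci tested. They were Cluster_15779, Cluster_99282, Cluster_219449, Cluster_219450, Cluster_170541, Cluster_273394 and Cluster_203651. Over all experiments, the means of the control groups ran from 16.3 RPM (TB-6Sa) to 172 RPM (TB-7Lb) for Cluster_15779. Those of Cluster_219449 ran from 0.549 RPM (Dp4) to 23.8 RPM (the group shared by TB-1Sb, TB-3Sb and TB-5Lb). Those of Cluster_219450 ran from 0.485 RPM (Dp4) to 20.2 RPM (TB-1La). For Cluster_42505 the group means ran from 2.30 to 6.33 RPM, and this locus was not called. All loci with 4 or more trans calls were among the 7, apart from Cluster_158979. Without the sequencing experiment that holds Dp4, 3 of the 7 were called (Cluster_15779, Cluster_219449 and Cluster_273394).

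In the libraries of the triploid series several unnamed loci that were otherwise among the highest were close to 0. The 5 libraries of this series, 2 of triploids and 3 of their diploids, are of the inbred line Mo17. They were set beside the 304 libraries other than this series, Dp4 and another plant of Dp4 whose dosage is uncertain, for loci with a mean of at least 2 RPM there, 9 unnamed and 26 named. The median ratio was 0.0708 for the unnamed, 0.621 for the named and 0.611 for all of these loci. A ratio under 0.2 was found for 6 of 9 unnamed and 0 of 26 named loci.

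Cluster_15779 had 0.478 to 1.52 RPM in the 5 libraries, 12 counts in all, with a mean of 0.987 RPM against 76.3 RPM elsewhere and a lowest value of 9.39 RPM in any other of the 304 libraries. Cluster_219450 and Cluster_170541 had no count in the 5 libraries and were at least 35.3-fold and 8.65-fold lower, with 3 counts over them as the floor. Cluster_99282 had a mean of 0.664 RPM against 9.97, Cluster_219449 of 0.432 against 6.10 and Cluster_158979 of 0.340 against 3.07. For Cluster_15779 the 2 sets of libraries did not overlap. Cluster_42505, with the mature RNA of MIR171m, stood at 3.89 RPM against 3.98. The reads were placed on the W22 genome, and these 5 libraries differ from the others in inbred line and sequencing experiment at once, which cannot be told apart.

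The 9 Dp4 libraries, which share a sequencing experiment with TB-1La plants, lacked some of the same loci. Cluster_99282 had no count in them and was at least 37.1-fold lower than elsewhere, Cluster_170541 had 1 count, Cluster_219449 had 3 and Cluster_219450 had 5, against an expectation of 111, 24.5, 68.1 and 99.8 counts from the other libraries. These were 4 of the 9 unnamed loci under a ratio of 0.2, with 1 of 26 named loci. In the diploid TB-1La plants of that experiment Cluster_99282 had 9.33, 12.3 and 12.4 RPM and Cluster_219450 had 14.6, 21.3 and 24.9 RPM. Cluster_15779 had a mean of 40.8 RPM in the Dp4 libraries. Cluster_158979, in the region that Dp4 duplicates, averaged 10.4 RPM against 3.07 elsewhere, over plants with 2, 3 and 4 copies.

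**Figure D5:**
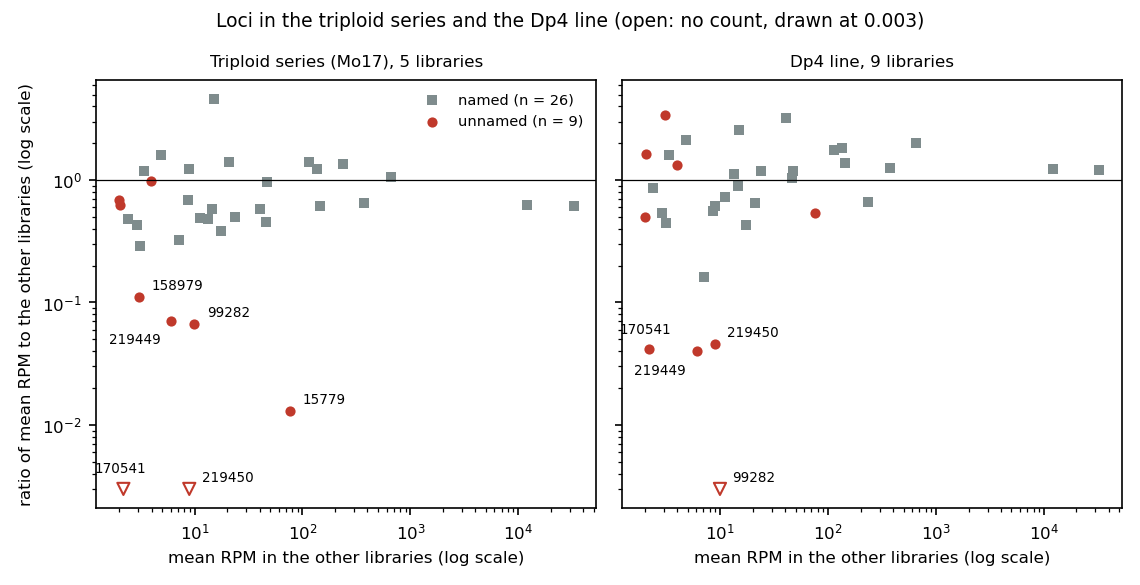
Ratio of the mean RPM in the 5 libraries of the triploid series (left) and the 9 Dp4 libraries (right) to that in the 304 other libraries, against the latter (both axes log scale), for 9 unnamed and 26 named loci of at least 2 RPM. Open symbols have no count and are drawn at 0.003: Cluster_219450 and Cluster_170541 on the left and Cluster_99282 on the right.

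Whole genomes were varied in the ploidy series, in which each ploidy was set against its own diploids. None of 36 tests of the unnamed loci was called, 0 with an unadjusted p under 0.05 and 0 with DESeq2, and 0% of all 123 tests were called with edgeR. With 1 B chromosome against none, 0 of 14 unnamed loci were called (1 with an unadjusted p under 0.05, 0 with DESeq2), with 2.33% of all loci called. The locus with that p was Cluster_15779, at 69.3 ± 30.2 RPM (SD, n = 3) with the B chromosome and 90.6 ± 16.6 RPM (SD, n = 4) without it (log2 fold change -0.75, SE 0.32, FDR 0.428). It was called where a pair of plants whose counts did not differ beyond the sampling noise was not joined (-0.94, FDR 0.0409). It was also called without 1 plant with the B chromosome (-1.25, FDR 0.0129), and not without any other sample.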

How the data were processed

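Small RNAs of leaves were extracted with a miRNA kit, made into libraries and sequenced. The authors removed adaptors (cutadapt 1.16), low-quality reads and those of structural RNAs (Bowtie2), placed the rest on the W22 genome with the organelle genomes using ShortStack, and deposited raw counts per locus. The authors also deposited RPM, these counts relative to mapped reads in each library. Reads were not realigned, and how reads that fit several loci were placed was not tested.

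Names, positions, mature sequences and varied regions came from the study's annotation of the loci, and groups from the labels. All columns were matched to plants (0 columns unmatched). The 3 libraries set aside by the study and 1 Dp4 plant labelled with 3 copies, for which the study's list of plants gives 4, were left out of all groups.

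Each group was compared with its own control in edgeR 4.0.16 (R 4.3.3; quasi-likelihood test, library sizes from the count table, TMM) over loci with a mean of at least 0.5 RPM, with Benjamini-Hochberg adjustment within a comparison and an FDR threshold of 0.05. The SE is the log2 fold change over the square root of the F value. Dose slopes used log2 copies as a number in 1 fit per line. The difference of TMM from mapped-read scaling moved the median of all loci by -0.59 to 0.65 (log2) over 55 comparisons and by over 0.1 either way in 32. Pairs of plants were joined where a chi-square test over loci with at least 10 counts gave p above 0.05, unless a plant was already in a joined pair. Alternatives were DESeq2 1.42.0, mapped reads as library size, other limits on RPM, joined or separate plants, returned libraries, 1 fit per line, and leaving out each plant. The fits were tested on simulated data. Intervals of slopes are 95% intervals from the SE and the t quantile for the number of samples. Tables were handled in pandas 2.3.3 and numpy 2.4.6 with scipy 1.17.1 under Python 3.11.15, and plotted with matplotlib 3.10.9.

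The text names unnamed loci called in cis or by slope, called in trans in at least 4 comparisons, the 5 of highest level, those tested in no comparison, those in no varied region, those called in the ploidy or B chromosome comparisons, and 6 further loci (Cluster_15779, Cluster_219449, Cluster_219450, Cluster_273394, Cluster_170541 and Cluster_42505). Loci with fewer trans calls, those near the threshold in cis and the lowest and 24-nt loci were named after their values were seen. The loci and these rules were chosen with earlier results of these data known.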

Additional observations from a re-analysis of the deposited data

Results flagged for a closer look

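Among 57 groups of 4 to 10 plants whose values are printed, 4 held a plant far from the others by Dixon's criterion, which chance gives in about 1 in 20 groups. For Cluster_158979, 1 diploid Dp4 plant had 12.4 RPM, and the next highest had 1.94 RPM. For Cluster_273394, 1 plant with 3 copies of the TB-7Lb segment had 15.6 RPM, with the next at 8.42 RPM. At low counts, Cluster_4527 had 0 RPM in 1 diploid of the group shared by TB-1Sb, TB-3Sb and TB-5Lb, with the next at 0.554 RPM, and Cluster_55368 had 0.814 RPM, a single count, in 1 haploid control of TB-2Sa, with the others at 0.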

How the results depend on the processing

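No call of an unnamed locus changed its direction under any alternative. Without each plant in turn, the cis calls numbered 7 to 10 (8 with all plants), the trans calls 48 to 55 (52), the slopes called 4 to 5 (4), the loci that differed between control groups 5 to 9 (7), the ploidy calls 0 to 0 (0) and the 1B/0B calls 0 to 1 (0). With all plants as separate samples 1 unnamed locus was called in 1B/0B. Without the sequencing experiment of Dp4, 3 control-group loci were called. At least 3 counts in place of 1 moved the median detection from 54.2% to 13.2% of libraries. With DESeq2 there were 6 cis and 43 trans calls (15 higher, 28 lower), and with mapped reads as library size 10 and 61 (23 higher, 38 lower), and the cause was not tested. Of the calls, 5 of 8 in cis, 24 of 52 in trans and 4 of 4 slopes were kept under all settings and without each plant. Leaving out the TB-1La haploids, chosen after seeing the data, left 7 cis and 44 trans calls, and leaving out Dp4, also chosen then, left 8 and 52. No paired analysis was possible because the plants carry plant numbers that are not shared between groups. Most unnamed loci rest on few counts per library, which limits what differences could be detected.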

Other observations

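A Dp4 plant that was left out of all groups, because its label and the study's list of plants give different numbers of copies, had 11 counts of Cluster_158979 (9.39 RPM), 11 of Cluster_273394 (9.39 RPM), 28 of Cluster_15779 (23.9 RPM) and 1 each of Cluster_219449 and Cluster_219450 (0.85 RPM).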
